A study of Homo sapiens with 4 samples.

Results

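The proteasome is the protease that degrades most ubiquitin-tagged proteins of a human cell. Its 20S core particle is a barrel of 2 outer rings of alpha subunits (PSMA genes) and 2 inner rings of beta subunits (PSMB genes), and only the beta subunits PSMB5, PSMB6 and PSMB7 carry the proteolytic sites. A 19S regulatory particle caps the core, with a base of ATPases (PSMC genes) and other subunits that unfold the substrate, and a lid that removes its ubiquitin (both PSMD genes). Under interferon the catalytic subunits are replaced by PSMB8, PSMB9 and PSMB10, which gives the immunoproteasome, and the PSME genes encode alternative activators of the core. The transcription factor NFE2L1 (NRF1) induces the subunit genes together when proteasome activity falls short. In the counts examined here, the members were the genes with a symbol of PSMA to PSMG followed by a number, together with POMP, the factor that matures the core. This rule uses gene symbols alone, was set with earlier results of these data known, and found 49 of the 60623 genes counted.

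RNA was measured in BICR10, a head and neck cancer cell line, by stranded, poly(A)-selected RNA-seq with paired reads. Both groups had been transduced with lentivirus and selected with puromycin. The shControl group (2 libraries) carried a control hairpin, and the shYEATS2 group (2 libraries) carried a hairpin against YEATS2, a reader of acylated histones. The study lists 2 hairpins against YEATS2, and the labels do not say whether both shYEATS2 libraries carry the same one. The study's methods speak of independent biological replicates in general, and the labels do not say of these libraries whether those of a group came from separate cultures. The p-values therefore measure the spread between these libraries, which may be technical. The comparison asks which proteasome genes changed their RNA level when YEATS2 was silenced.

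The libraries held 47297970 and 39824898 counts (shControl) and 24072396 and 11334133 counts (shYEATS2), so the shYEATS2 libraries were the shallower ones, and depth and condition cannot be told apart. Levels are given as counts per 1000000 scaled by TMM (CPM), the scaling of edgeR that allows for differences in RNA composition. YEATS2 was at 66.1 and 66.7 CPM in shControl and at 29.2 and 29.1 CPM in shYEATS2, a log2 fold change of −1.19 (SE 0.08, adjusted p = 3.6e-21). The markers of the labelled cell type were partly missing. Of 10 squamous epithelial markers, TP63, KRT17, CDH1, EPCAM and KRT14 were below 3 CPM in every library, and the list summed to 213 and 215 CPM in shControl and 145 and 135 CPM in shYEATS2. Most of that sum was SFN, at 126 to 136 CPM in every library. Of the 8 markers tested, 6 were lower, with KRT6A at 2.93% and KRT5 at 7.26% of the shControl mean, and CDH1 was higher (0.35 and 0.32 CPM against 2.84 and 2.12 CPM). All 6 fibroblast markers were lower in shYEATS2, and their sum was 7286 and 7195 CPM in shControl against 2349 and 2212 CPM in shYEATS2. Sums of the leukocyte and endothelial markers did not exceed 2.21 CPM, with CD3E at 0. The part of these differences in the results was not tested, and in bulk RNA a change in the mix of cells cannot be told apart from a change of RNA per cell.

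Few proteasome genes differed far between the groups, and the calls went in both directions. Of the 47 members with enough counts for edgeR's quasi-likelihood test, 12 were lower and 9 were higher in shYEATS2 at a Benjamini-Hochberg adjusted p under 0.05. That is 25.5% lower and 19.1% higher, against 23.6% and 22.6% of all 17058 genes tested. The median log2 fold change of the members was −0.01, as was that of all genes. Their spread was narrower: the quartiles of the members were −0.18 and 0.09, and those of all genes −0.31 and 0.32. Among abundant genes (a mean of at least 50 CPM, 38 members), 8 members were lower and 9 higher, while 36.9% of the 4229 genes of that abundance were lower and 26.1% higher, with quartiles of −0.27 and 0.17. The libraries of the groups did not overlap for 17 members with shYEATS2 below and for 13 with it above, which 36.3% and 35.3% of all genes also showed. The libraries of a group differed by a median of 0.06 on the log2 scale over the members in shControl and in shYEATS2, against 0.10 and 0.15 over all genes. The change was under 0.5 on the log2 scale in 43 of the 47. The quartiles of all genes, at −0.31 and 0.32, also lie within that range. The remaining members, PSMA8 of the testis and PSMB11 of the thymus, are restricted to those organs, and had 0 counts in every library and 1 count in shControl 1, respectively.

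The summed level of the members was 6448 and 6413 CPM in shControl and 6192 and 6176 CPM in shYEATS2. As a share of the unscaled counts the order was the opposite, with 0.618% and 0.608% in shControl and 0.652% and 0.642% in shYEATS2. The calls moved with the scaling. With library totals alone, 5 members were lower and 18 higher, beside 2567 and 5441 of all 17058 genes. The median over all genes moved to 0.13 and that of the members to 0.12. Which calls were lost depended on the setting, since library totals removed falls and added rises. DESeq2 called 8 falls and 5 rises, beside 2846 and 2393 of all genes. At an unadjusted p under 0.05 with all libraries there were 15 falls and 9 rises, and the share of all genes at that threshold is not given here. Without shControl 1 or shControl 2, rises lost their call more often than falls. The rise of PSMA5 was 0.23 and 0.19 in these fits, against 0.21 with all libraries, while its SE grew from 0.07 to 0.10. Other estimates moved more, with PSMB7 at 0.23 and 0.08 (0.16 with all libraries) and PSME4 at 0.13 and 0.21 (0.18). No rise was called under all of the 10 alternative fits. PSMA5, PSMC5, PSMD2, PSMD4 and PSMD14 were each called as higher in 9 of them, all but the fit without a filter on low counts. The 5 falls of PSMD3, POMP, PSMD6, PSMB4 and PSMA4 were called under each of the 10 alternative fits and without each library in turn.

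**Figure D1:**
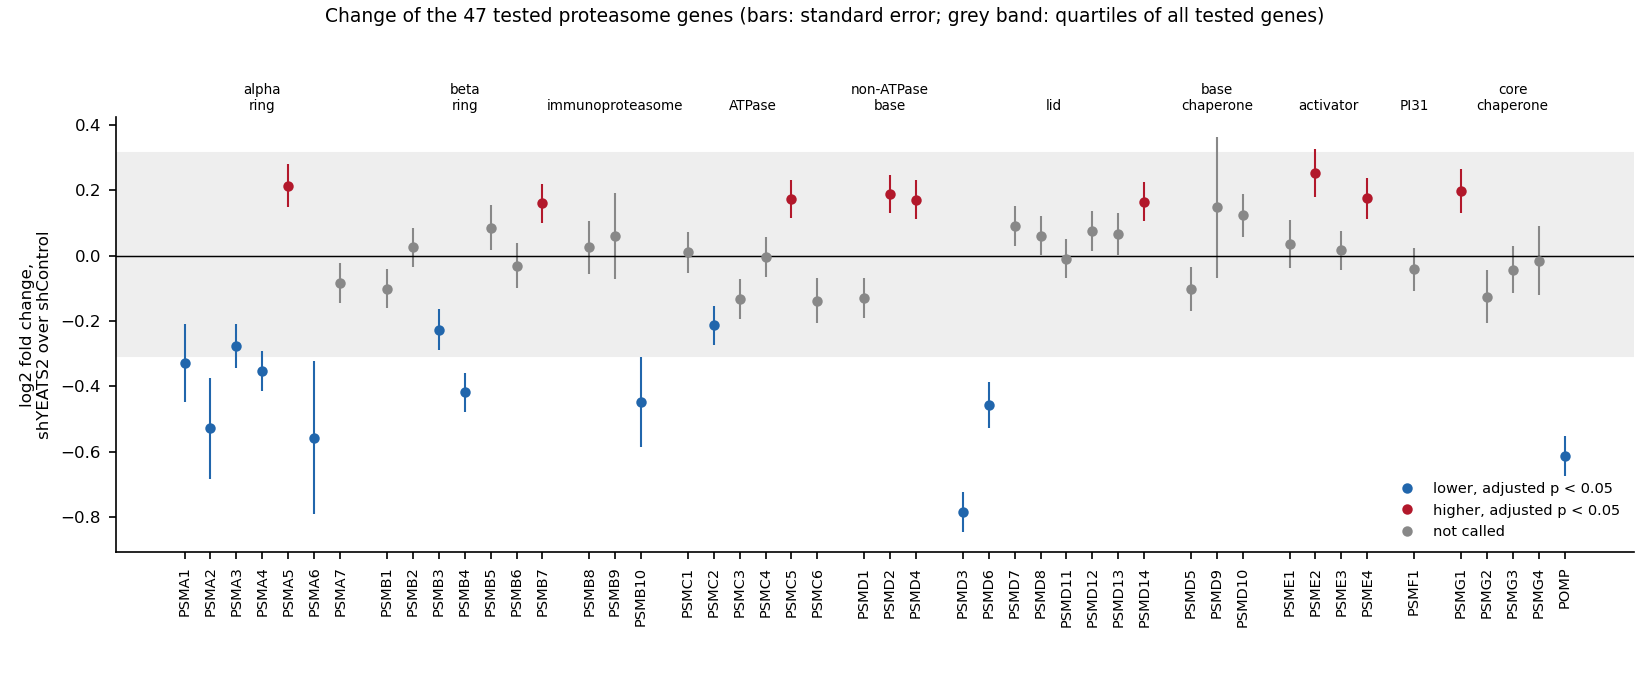
Log2 fold change (shYEATS2 over shControl, y axis) of the 47 tested proteasome genes, grouped by their place in the particle, with points at the edgeR estimate, bars of 1 standard error and a grey band between the quartiles of all 17058 genes. The values run from −0.78 (PSMD3) to 0.25 (PSME2), and 12 points are coloured as lower and 9 as higher.

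The largest fall was that of PSMD3, a scaffold subunit of the lid (gene on chromosome 17, 39980807 to 39997959, GRCh38). It was at 276 and 261 CPM in shControl and at 163 and 148 CPM in shYEATS2. The groups were far apart, with a log2 fold change of −0.78 (SE 0.06, adjusted p = 1.6e-17). POMP brings the beta subunits onto the alpha ring and is the first substrate of the finished core. It fell from 227 and 226 CPM to 147 and 149 CPM, and the libraries of each group lay within 3 CPM of each other (log2 fold change −0.61, SE 0.06, adjusted p = 1.5e-13). PSMD6, a lid subunit, stood at 78.6 and 86.0 CPM in shControl and at 56.8 and 63.9 CPM in shYEATS2 (−0.46, SE 0.07, adjusted p = 1.7e-07). PSMB4, a beta subunit without a proteolytic site, was at 245 and 247 CPM in shControl and 190 and 178 CPM in shYEATS2 (−0.42, SE 0.06, adjusted p = 2.3e-08). PSMA4 of the alpha ring was at 270 and 283 CPM in shControl and at 204 and 230 CPM in shYEATS2 (−0.35, SE 0.06, adjusted p = 1.9e-06). These 5 genes belong to the alpha ring, the beta ring, the lid and the assembly factors, so no single ring or cap held them.

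**Figure D2:**
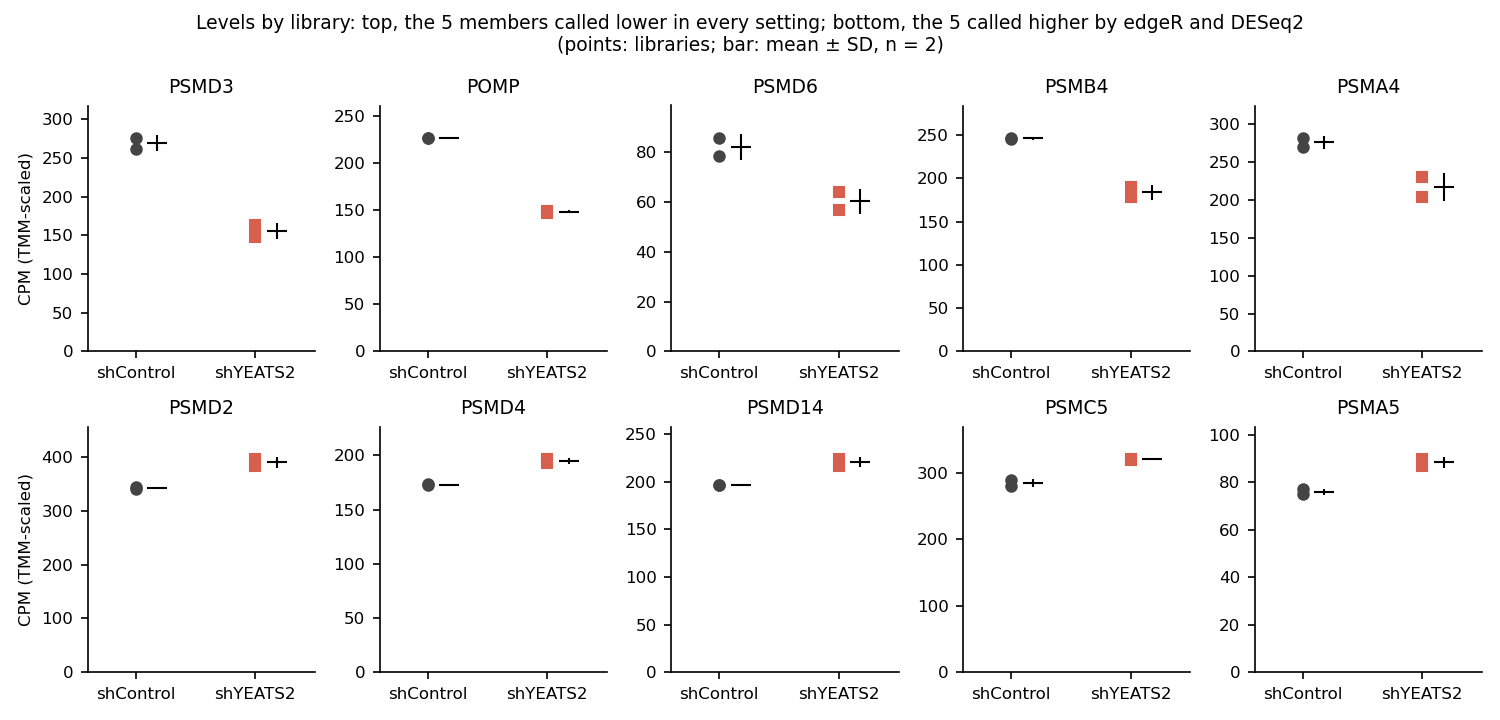
CPM (y axis, from 0) of 10 members in each library, with shControl as circles, shYEATS2 as squares, and a bar for the mean ± SD of 2 libraries. In the upper row the squares lie under the circles (PSMD3 at 163 and 148 against 276 and 261 CPM), and in the lower row they lie over them by a smaller step (PSMD2 at 396 and 382 against 340 and 343 CPM).

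The sequence before the start of these genes is shown because the factors known to drive proteasome genes bind near it. The 250 bases before the RefSeq start (GRCh38.p14, 5′ to 3′ on the gene's strand) are printed for the falls whose window held no annotated untranslated base, at chr17:39980557-39980806 (plus strand), chr3:64023495-64023744 (minus), chr1:151399323-151399572 (plus) and chr15:78540155-78540404 (plus). Capitals mark matches, on either strand, to the antioxidant response element TGACNNNGC bound by NRF1 and NRF2, the GC box GGGCGG, the CCAAT box CCAAT, the ETS core CCGGAAG and the interferon response core GAAANNGAA.
PSMD3: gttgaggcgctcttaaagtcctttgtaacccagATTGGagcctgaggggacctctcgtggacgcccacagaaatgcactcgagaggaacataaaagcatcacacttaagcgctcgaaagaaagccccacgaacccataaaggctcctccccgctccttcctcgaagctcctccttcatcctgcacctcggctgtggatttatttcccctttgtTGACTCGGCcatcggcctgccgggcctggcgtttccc
PSMD6: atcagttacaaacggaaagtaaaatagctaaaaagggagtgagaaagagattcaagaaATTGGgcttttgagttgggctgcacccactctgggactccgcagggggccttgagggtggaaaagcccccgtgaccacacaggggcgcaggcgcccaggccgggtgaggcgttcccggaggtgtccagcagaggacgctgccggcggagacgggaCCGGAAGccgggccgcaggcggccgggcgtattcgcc
PSMB4: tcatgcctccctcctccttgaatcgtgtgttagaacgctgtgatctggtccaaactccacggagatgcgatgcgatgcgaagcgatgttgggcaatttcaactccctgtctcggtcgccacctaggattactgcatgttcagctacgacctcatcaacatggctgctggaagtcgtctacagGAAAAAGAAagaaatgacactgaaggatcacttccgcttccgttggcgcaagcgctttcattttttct
PSMA4: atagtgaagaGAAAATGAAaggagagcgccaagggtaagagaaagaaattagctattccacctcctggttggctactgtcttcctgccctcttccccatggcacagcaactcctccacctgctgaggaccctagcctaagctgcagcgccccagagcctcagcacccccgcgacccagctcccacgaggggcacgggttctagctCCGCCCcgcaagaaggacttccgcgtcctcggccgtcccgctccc

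PSMD3, the member with the largest fall, has an antioxidant response element close to the start. The other 3 windows have none. PSMB4 and PSMA4 each hold an interferon response core, PSMA4 has a GC box, and PSMD6 has an ETS core and a CCAAT box. For contrast, the same stretch is given for the rises called by both edgeR and DESeq2 whose window held no untranslated base, at chr1:109426449-109426698 (minus) and chr2:161308175-161308424 (plus).
PSMA5: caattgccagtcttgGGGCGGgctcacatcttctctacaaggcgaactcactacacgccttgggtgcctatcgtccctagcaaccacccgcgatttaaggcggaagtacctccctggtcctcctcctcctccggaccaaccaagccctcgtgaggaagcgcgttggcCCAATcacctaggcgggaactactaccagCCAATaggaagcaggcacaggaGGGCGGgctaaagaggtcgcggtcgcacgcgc
PSMD14: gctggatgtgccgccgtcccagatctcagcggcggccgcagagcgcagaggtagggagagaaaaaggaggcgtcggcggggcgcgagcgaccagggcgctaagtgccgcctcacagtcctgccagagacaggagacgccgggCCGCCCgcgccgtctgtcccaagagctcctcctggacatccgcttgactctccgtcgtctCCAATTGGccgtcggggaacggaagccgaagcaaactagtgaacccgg

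Both of these windows hold GC and CCAAT boxes and no antioxidant response element, and the longest run of capitals in PSMD14 is a pair of CCAAT boxes that overlap on opposite strands. Over the 300 bases from 250 before to 50 after the start, RefSeq gave a window for 43 of the 49 members. An antioxidant response element was found in 13 of the 43 (30.2%), against 13.6% of all 27305 promoters and 15.03% of the 11002 promoters of genes tested here. Of these 13 members, 2 were lower (PSMD3 and PSMB3) and 3 were higher in shYEATS2 (PSME2, PSME4 and PSMG1). The ETS core was in 14 members (32.6%), against 10.7% of all and 18.4% of the tested genes' promoters, and 3 of the 14 were lower and 2 higher. The GC box was in 28 members (65.1%, against 44.6% of all and 68.5% of tested), of which 5 were lower and 7 higher. The CCAAT box was in 19 (44.2%, against 35.7% and 36.5%), with 6 lower and 4 higher. The interferon response core was in 8 (18.6%, against 8.29% and 6.63%), with 5 lower and 1 higher. Over all 43 members with a window, 12 were lower and 7 were higher. A match is a run of letters and does not show that a factor binds there.

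In the 20S core, 7 of the 14 constitutive subunits were lower and 2 were higher, with a median log2 fold change of −0.16. That is 50% lower and 14.3% higher, against 23.6% and 22.6% of all genes tested. The alpha ring, which gates the entry to the barrel, held most of the falls, with 5 of 7 subunits lower (PSMA1, PSMA2, PSMA3, PSMA4 and PSMA6), 1 higher (PSMA5) and a median of −0.33. PSMA3 had 99.1 and 93.7 CPM in shControl and 77.4 and 82.4 CPM in shYEATS2, so that the groups did not overlap (−0.28, SE 0.07, adjusted p = 0.00044), but PSMA3 was not called with library totals alone (adjusted p = 0.069) or without shControl 1 (adjusted p = 0.052). PSMA5 went the other way, from 77.0 and 75.1 CPM to 86.7 and 90.02 CPM (0.21, SE 0.07, adjusted p = 0.0062). PSMA7 was at 272 and 247 CPM in shControl and at 252 and 237 CPM in shYEATS2, which overlapped (−0.08, adjusted p = 0.26).

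The falls of PSMA1, PSMA2 and PSMA6 were the least stable of the alpha ring. By GENCODE release 44 these genes share exons with a read-through gene on the same strand, a transcript that joins a gene to its neighbour, and the counting program by default sets aside a read that matches 2 genes. The shared part was 100% of the canonical transcript of PSMA2, 81.4% for PSMA6 and 67.0% for PSMA1, and also 56.1% for PSMB10 and 28.8% for PSMD9. The part of this sharing in the levels was not tested, since the annotation used for the counting is not known. PSMA6 had 180 and 103 counts in shControl and 63 and 23 in shYEATS2, or 3.97 and 2.73 CPM against 2.49 and 1.95 CPM (−0.56, SE 0.23, adjusted p = 0.043), and without shControl 1 its log2 fold change was −0.26. PSMA2 was at 8.69 and 10.2 CPM in shControl and at 5.33 and 8.48 CPM in shYEATS2 (−0.53, SE 0.16, adjusted p = 0.0046), and at −0.16 without shYEATS2 1 and −0.82 without shYEATS2 2. PSMA1 overlapped between the groups, with 33.6 and 25.9 CPM in shControl and 21.7 and 26.6 CPM in shYEATS2 (−0.33, SE 0.12, adjusted p = 0.033). The log2 fold change of PSMA1 was −0.12 without shControl 1, −0.50 without shControl 2 and −0.18 without shYEATS2 1. Each of these 3 falls lost its call without at least 1 library. DESeq2 called none of these 3 falls, with adjusted p of 0.28 for PSMA6, 0.12 for PSMA2 and 0.11 for PSMA1. Of the 5 members with such a shared exon, 4 were lower. Without them 8 of 42 members were lower and 9 higher, and the alpha ring kept 2 falls (PSMA3 and PSMA4), the rise of PSMA5 and the uncalled PSMA7. With library totals alone the alpha ring had 1 fall (PSMA4) and 1 rise (PSMA5).

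In levels per length (counts per 1000000 after division by the length of the merged exons), PSMA6 and PSMA2 stood far below the other subunits of the barrel, which holds equal numbers of each alpha subunit. In shControl, PSMA6 was at 1.83 and 1.26 and PSMA2 at 3.11 and 3.66, while PSMA7, the highest, was at 465 and 424. The 11 core subunits without a shared exon ranged from 39.8 (PSMA5) to 445 (PSMA7), with a median of 218. PSMA7, PSMB1, PSMB3, PSMB7 and PSMB4 led, in that order, at a shControl mean of 445 ± 29.1, 378 ± 4.50, 362 ± 11.5, 361 ± 23.5 and 347 ± 2.67 (SD, n = 2). Neighbours in this order from PSMB1 to PSMB4 differed by less than 2 SD of the wider one. Per kilobase of the canonical transcript, a length chosen after seeing the data, PSMB1 led at 597 and the median of the 11 was 243.

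**Figure D3:**
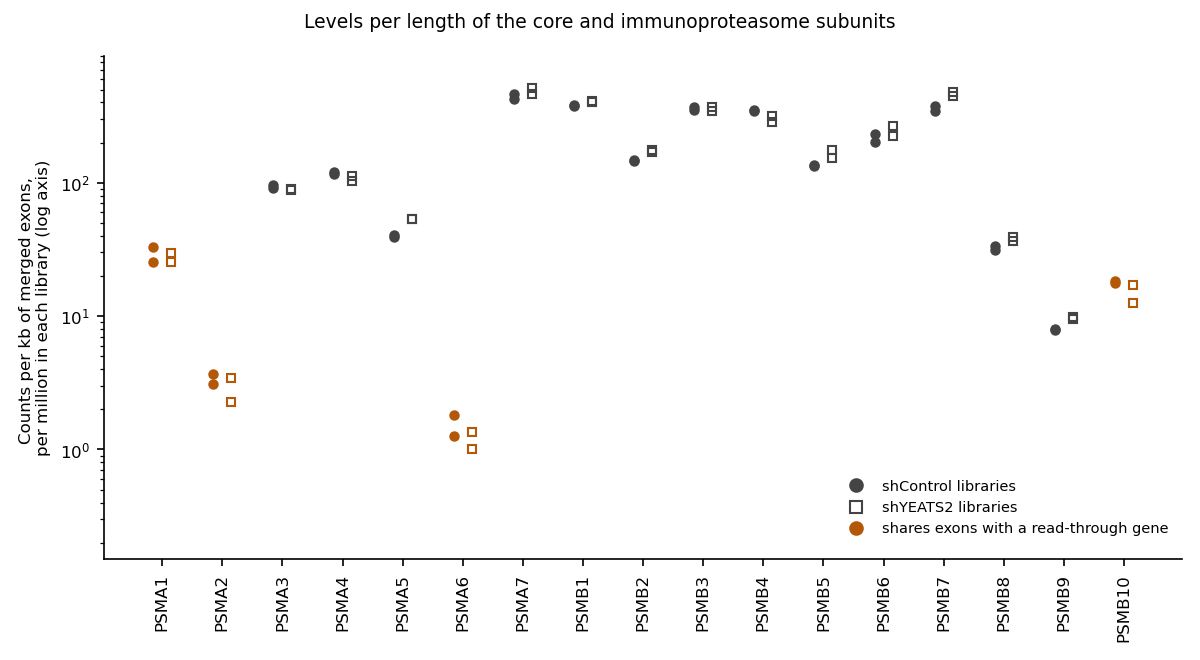
RNA level of the alpha, beta and immunoproteasome subunits in each library, in counts per 1000000 after division by the length of the merged exons (log axis), with shControl as filled circles, shYEATS2 as open squares and the members that share exons with a read-through gene in orange. PSMA6 (1.83 and 1.26 in shControl) and PSMA2 (3.11 and 3.66) lie below all others, and PSMA7 (465 and 424) lies at the top. These levels are scaled within each library without TMM, so the groups can differ in another direction than in CPM. The mean of PSMB1 was 378 in shControl and 407 in shYEATS2 here, but 279 and 261 in CPM.

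The beta ring was less one-sided, with 2 of 7 subunits lower (PSMB3 and PSMB4), 1 higher (PSMB7) and a median of −0.03. That is 28.6% lower and 14.3% higher, against 23.6% and 22.6% of all genes. PSMB3, which has no proteolytic site, was at 138 and 144 CPM in shControl and at 122 and 118 CPM in shYEATS2 (−0.23, SE 0.06, adjusted p = 0.002), and it was not called with library totals alone (adjusted p = 0.20) or without shControl 2 (adjusted p = 0.079). None of the 3 proteolytic subunits was called lower by edgeR or DESeq2 (0 at an unadjusted p under 0.05). PSMB5, the chymotrypsin-like site and the target of bortezomib, was at 69.8 and 68.6 CPM in shControl and at 76.5 and 69.5 CPM in shYEATS2 (0.09, SE 0.07, adjusted p = 0.32). PSMB6, the caspase-like site, overlapped between the groups, with 113 and 97.7 CPM against 109 and 96.3 CPM (−0.03, SE 0.07, adjusted p = 0.75). PSMB7, the trypsin-like site, rose from 225 and 205 CPM to 243 and 237 CPM (0.16, SE 0.06, adjusted p = 0.025). DESeq2 did not call the rise of PSMB7 (adjusted p = 0.087), and without shControl 2 it was 0.08 (adjusted p = 0.50 by edgeR).

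The inducible subunits were all detected, although the labels name no interferon treatment, and 1 of the 3 was called. Over all genes tested, 23.6% were lower and 22.6% higher. PSMB8, which takes the place of PSMB5, was at 38.8 and 36.0 CPM in shControl and at 38.7 and 37.2 CPM in shYEATS2 (0.02, SE 0.08, adjusted p = 0.83). PSMB9, which takes the place of PSMB6, was at 8.75 and 8.89 CPM against 8.88 and 9.67 CPM (0.06, SE 0.13, adjusted p = 0.74). Both estimates lay within 1 SE of 0. PSMB10, which takes the place of PSMB7, was lower, with 9.99 and 9.53 CPM in shControl and 7.86 and 6.02 CPM in shYEATS2 (−0.45, SE 0.14, adjusted p = 0.0054). PSMB10 is among the genes that share exons with a read-through gene, and DESeq2 did not call it (adjusted p = 0.098). Its log2 fold change was −0.71 without shYEATS2 1, and the call was lost without shControl 1 and without shYEATS2 2 (adjusted p = 0.055 and 0.062 by edgeR). Per length of merged exons, PSMB8 made 19.8% and 18.9% of the PSMB8 and PSMB5 RNA in shControl and 18.4% and 19.3% in shYEATS2. The share of PSMB9 in its pair was 3.26% and 3.80% in shControl and 3.42% and 4.17% in shYEATS2. PSMB10 made 4.65% and 4.87% of its pair in shControl and 3.43% and 2.72% in shYEATS2, the one pair in which the groups did not overlap. These shares depend on the length used. Per canonical transcript the share of PSMB8 was 34.1% and 32.8% in shControl and 32.0% and 33.2% in shYEATS2.

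**Figure D4:**
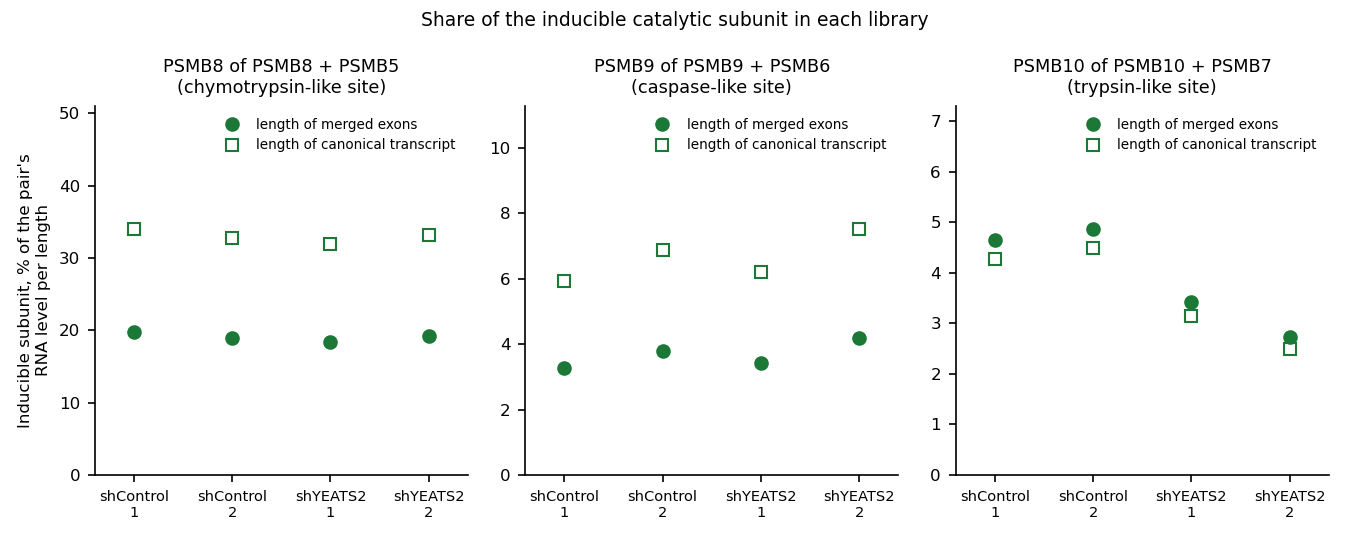
Share of the inducible subunit in the RNA of its catalytic pair (y axis, percent from 0, a separate scale for each pair) in each of the 4 libraries, per length of merged exons (filled) or of the canonical transcript (open). PSMB8 lies near 19% by merged exons in all libraries and PSMB10 lies lower in shYEATS2 (3.43% and 2.72%) than in shControl (4.65% and 4.87%).

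Among the 20 PSMC and PSMD genes, which include the subunits of the 19S particle, 3 were lower and 4 were higher. That is 15% lower and 20% higher, against 23.6% and 22.6% of all genes. Their median log2 fold change was 0.04. The 6 ATPases form the ring that pulls the substrate into the barrel, and 1 was lower and 1 higher. PSMC2 was at 246 and 247 CPM in shControl and at 207 and 220 CPM in shYEATS2 (−0.21, SE 0.06, adjusted p = 0.0024). PSMC5 was at 289 and 280 CPM in shControl and at 320 and 322 CPM in shYEATS2 (0.17, SE 0.06, adjusted p = 0.012). The 2 ATPases thus moved apart by small steps, and with library totals alone PSMC2 was not called (adjusted p = 0.26). Without a filter on low counts PSMC5 was not called (adjusted p = 0.16 by edgeR). The other 4 ATPases lay between −0.14 (PSMC6) and 0.01 (PSMC1) and were not called. For PSMC1, 76.1% of the merged exon bases lie opposite exons of NRDE2, and the strand setting of the counting is not given in the sources used here.

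Of the 3 non-ATPase subunits of the base, 2 were higher, where 22.6% of all genes tested were higher. PSMD2, the large scaffold that docks ubiquitin-like shuttle proteins, rose from 340 and 343 CPM to 396 and 382 CPM (0.19, SE 0.06, adjusted p = 0.0052). PSMD2 lies 486573 bases from YEATS2 on the same strand of chromosome 3. PSMD4, a ubiquitin receptor, was at 173 and 172 CPM in shControl and at 193 and 197 CPM in shYEATS2 (0.17, SE 0.06, adjusted p = 0.016). Neither rise was called without a filter on low counts (adjusted p = 0.086 for PSMD2 and 0.18 for PSMD4 by edgeR). PSMD1, the other large scaffold, was at 176 and 181 CPM in shControl and at 165 and 161 CPM in shYEATS2 (−0.13, SE 0.06, adjusted p = 0.073).

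The lid held both the largest fall of all members and a rise of its enzyme. Of its 8 subunits, 25% were lower and 12.5% higher, against 23.6% and 22.6% of all genes. Besides PSMD3 and PSMD6, which were lower, PSMD14, the metalloprotease that cuts ubiquitin from the substrate, was higher. It was at 197 and 196 CPM in shControl and 217 and 224 CPM in shYEATS2 (0.16, SE 0.06, adjusted p = 0.02). Without a filter on low counts PSMD14 was not called (adjusted p = 0.22 by edgeR). The 5 other lid subunits, PSMD7, PSMD8, PSMD11, PSMD12 and PSMD13, lay between −0.01 and 0.09 and none was called by edgeR, while 0 of them passed an unadjusted p under 0.05 and 0 were called by DESeq2. With library totals alone the lid had 2 falls and 5 rises, so the calls on its smaller changes depend on the scaling. Under that scaling 2567 of all 17058 genes were lower and 5441 higher. PSMD5, PSMD9 and PSMD10 are chaperones of the base rather than subunits, and their log2 fold changes were −0.10, 0.15 and 0.12 with no call.

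Of the 4 activators, 2 were higher by small steps and none was lower (0 at an unadjusted p under 0.05 and 0 by DESeq2). Their median was 0.11. Over all genes tested, 22.6% were higher and 23.6% lower. PSME1 and PSME2 encode the alternating subunits of the interferon-inducible PA28 cap, and lie 4394 bases apart on opposite strands of chromosome 14. PSME2 was at 49.1 and 48.2 CPM in shControl and at 60.9 and 54.1 CPM in shYEATS2 (0.25, SE 0.07, adjusted p = 0.0036). Without shYEATS2 1 the change of PSME2 was 0.14 (adjusted p = 0.15 by edgeR's quasi-likelihood test), and it was called in 1 of the 4 fits that leave out a library. Its partner PSME1 overlapped between the groups, with 60.2 and 55.0 CPM against 60.2 and 57.6 CPM (0.04, SE 0.07, adjusted p = 0.72). PSME4, the PA200 activator of the nucleus, was at 129 and 137 CPM in shControl and at 150 and 151 CPM in shYEATS2 (0.18, SE 0.06, adjusted p = 0.016). DESeq2 called neither rise (adjusted p = 0.059 for PSME2 and 0.061 for PSME4). PSME3, the nuclear PA28 gamma cap, was at 182 and 192 CPM in shControl and at 185 and 193 CPM in shYEATS2 (0.02, adjusted p = 0.86). PSMF1, the proteasome inhibitor PI31, was at 97.2 and 100.4 CPM in shControl and at 98.7 and 92.6 CPM in shYEATS2 (−0.04, adjusted p = 0.63).

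The assembly factors of the core parted. POMP fell, as described above, and PSMG1, which with PSMG2 holds the alpha ring together while it forms, rose from 74.5 and 71.8 CPM to 82.4 and 85.8 CPM (0.20, SE 0.07, adjusted p = 0.012). DESeq2 did not call the rise of PSMG1 (adjusted p = 0.069). PSMG2 was at 38.6 and 41.4 CPM in shControl and at 36.6 and 36.7 CPM in shYEATS2 (−0.13, adjusted p = 0.20), and PSMG3 and PSMG4 were at −0.04 and −0.02 with no call.

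Genes around the proteasome were taken from 4 lists written by hand. Of 14 proteasome-associated genes outside the naming rule, 2 were lower (14.3%) and 6 higher (42.9%), with a median of −0.05. Over all genes tested, 23.6% were lower and 22.6% higher. USP14, a deubiquitinase that binds the base and trims ubiquitin chains, was at 188 and 195 CPM in shControl and at 132 and 138 CPM in shYEATS2 (−0.51, SE 0.06, adjusted p = 2.1e-10). UBE3C, a ligase that acts at the particle, was at 197 and 209 CPM in shControl and at 146 and 140 CPM in shYEATS2 (−0.50, SE 0.06, adjusted p = 2.4e-10). UCHL5, the other deubiquitinase of the base, was higher, at 74.6 and 73.0 CPM in shControl and 82.1 and 94.4 CPM in shYEATS2 (0.25, SE 0.07, adjusted p = 0.0021). Without shYEATS2 2 the change of UCHL5 was 0.15, and without shControl 2 it was not called (adjusted p = 0.07 by edgeR). AKIRIN2, which carries assembled proteasomes into the nucleus, rose from 42.9 and 45.5 CPM to 60.8 and 58.3 CPM (0.43, SE 0.07, adjusted p = 1.2e-06). The shuttle factors RAD23B, UBQLN1 and UBQLN4, which bring tagged proteins to the particle, were also higher, with log2 fold changes between 0.14 and 0.20. UBQLN2, another shuttle factor on the list, was not called. It was at 34.4 and 35.1 CPM in shControl and at 33.5 and 31.3 CPM in shYEATS2 (−0.09, SE 0.08, adjusted p = 0.38).

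Of 9 genes for the transcription of proteasome genes, 5 were higher and 1 was lower, with a median of 0.41. That is 55.6% higher and 11.1% lower, against 22.6% and 23.6% of all genes. NFE2L1 was at 346 and 325 CPM in shControl and at 464 and 442 CPM in shYEATS2 (0.44, SE 0.06, adjusted p = 3.7e-09). NFE2L2, the NRF2 factor of the oxidative stress response, rose from 101 and 109 CPM to 140 and 149.5 CPM (0.46, SE 0.06, adjusted p = 1.2e-08). The small MAF proteins are the partners with which both factors bind DNA. MAFF was at 6.37 and 6.62 CPM in shControl and at 31.4 and 28.9 CPM in shYEATS2 (2.23, SE 0.11, adjusted p = 4.0e-28), and MAFK was at 89.6 and 86.4 CPM against 143 and 130 CPM (0.64, SE 0.06, adjusted p = 4.0e-13). MAFG, the other small MAF on the list, was not called. It was at 95.3 and 97.8 CPM in shControl and at 104 and 107 CPM in shYEATS2 (0.13, SE 0.06, adjusted p = 0.099). BACH1, a repressor that competes for the same elements, rose (0.41, SE 0.07, adjusted p = 3.1e-06). NFE2L1 needs 2 steps after translation to become active, carried out by enzymes on the same list. NGLY1, which removes its glycans, was lower, at 42.2 and 44.9 CPM in shControl and 35.4 and 35.9 CPM in shYEATS2 (−0.29, SE 0.08, adjusted p = 0.002), and DDI2, the protease that cleaves it, was at 0.08 (SE 0.08, adjusted p = 0.40). The medians of the list and of the members thus differed, at 0.41 and −0.01.

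Among 12 genes for ubiquitin and its handling by p97, 3 were lower by edgeR (25%, near the 23.6% of all genes). None was higher, against 22.6% of all genes (0 at an unadjusted p under 0.05). VCP encodes p97, the ATPase that pulls tagged proteins out of membranes and complexes. It was at 575 and 604 CPM in shControl and at 432 and 419 CPM in shYEATS2 (−0.47, SE 0.06, adjusted p = 3.2e-10). UBA6, an activating enzyme of ubiquitin, was lower by a small step (−0.16, SE 0.07, adjusted p = 0.046), and the call held in 4 of 10 alternative fits and in 1 of 4 that leave out a library. DESeq2 did not call UBA6 (adjusted p = 0.15), and its log2 fold change was −0.09 without shControl 2 and −0.03 with library totals alone.

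Among 12 genes for interferon signalling and peptide loading, which use the products of the immunoproteasome, 4 were lower and 2 higher. That is 33.3% and 16.7%, against 23.6% and 22.6% of all genes. IRF1, an interferon-responsive factor that drives PSMB9 and other genes, was at 17.5 and 16.7 CPM in shControl and at 36.9 and 32.9 CPM in shYEATS2 (1.04, SE 0.09, adjusted p = 1.2e-15). ERAP1, which trims peptides in the endoplasmic reticulum, was lower, at 64.3 and 67.1 CPM in shControl and 47.2 and 51.2 CPM in shYEATS2 (−0.42, SE 0.07, adjusted p = 1.6e-06). B2M, the light chain of the class I molecules, fell from 710 and 740 CPM to 593 and 628 CPM (−0.25, SE 0.06, adjusted p = 0.00025), and it was not called with library totals alone (adjusted p = 0.087). NLRC5, the transactivator of class I genes, was at 27.4 CPM in both shControl libraries and at 38.6 and 28.4 CPM in shYEATS2 (0.32, SE 0.10, adjusted p = 0.0057). The rise of NLRC5 rests on shYEATS2 1, since without that library the log2 fold change was 0.04. HLA-C, a class I heavy chain, was also lower (−0.16, SE 0.06, adjusted p = 0.033).

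**Figure D5:**
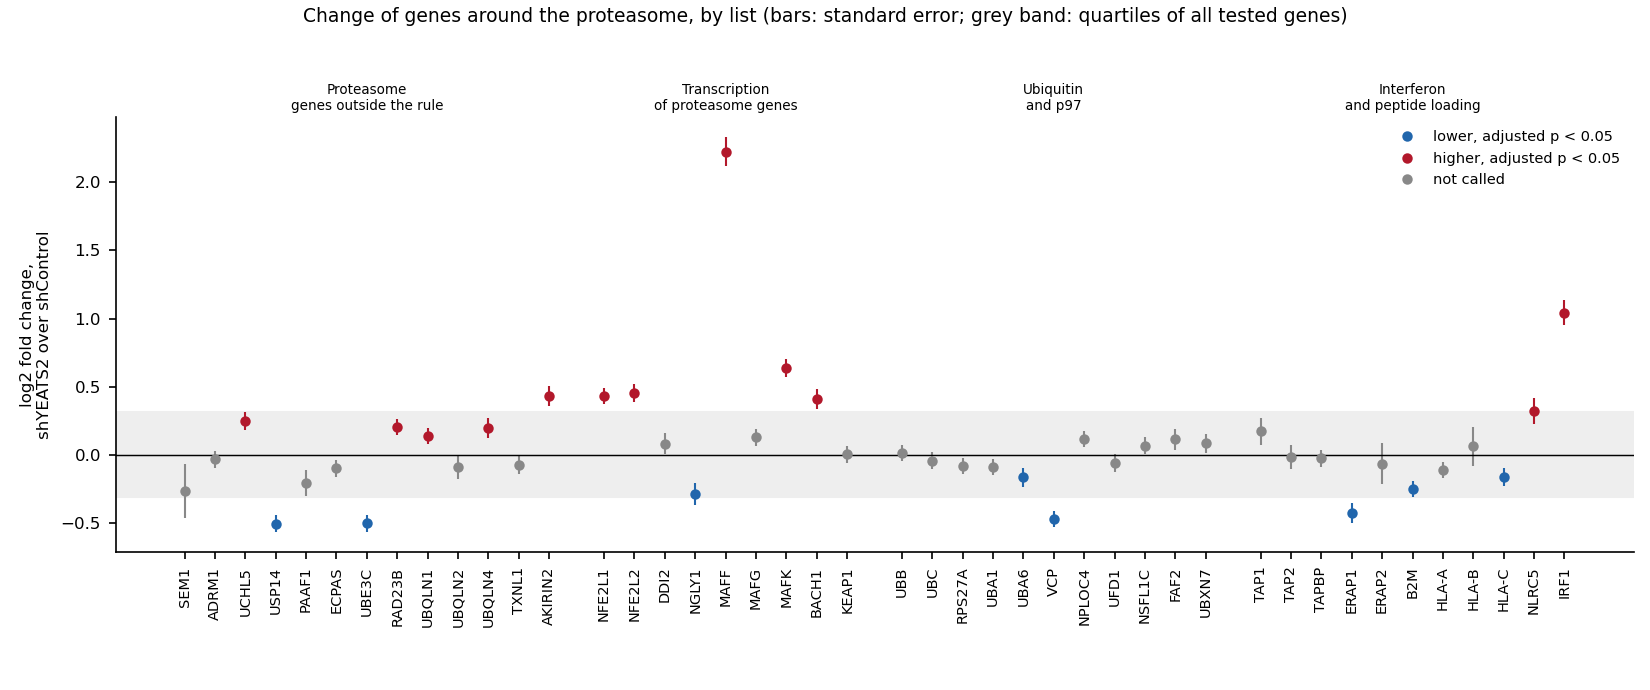
Log2 fold change (shYEATS2 over shControl, y axis) of genes from 4 lists around the proteasome, with points at the edgeR estimate, bars of 1 standard error and a grey band between the quartiles of all tested genes. MAFF (2.23) and IRF1 (1.04) lie highest, and USP14 (−0.51), UBE3C (−0.50), VCP (−0.47) and ERAP1 (−0.42) lowest.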

How the data were processed

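The deposited values are whole-number counts per Ensembl gene, 1 table per library. Per the labels and the study's methods, the authors prepared stranded mRNA libraries, checked the reads with FastQC, used STAR for alignment to GRCh38 and HTSeq for counting per gene, without normalization. Which annotation release and which strand option HTSeq used is not given in the sources used here. The reads not assigned to a gene (15.3% to 16.5% per library, 4.31% to 4.61% of all for reads matching more than 1 gene) were left out of library sizes and tests.

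In R 4.3.3, edgeR 4.0.16 was used with filterByExpr, TMM factors and its quasi-likelihood test (glmQLFTest after a robust glmQLFit) over the 17058 genes kept. Calls required an adjusted p (Benjamini-Hochberg) below 0.05. Fold changes are shYEATS2 over shControl. Totals of 11334133 to 47297970 counts make 1 count worth 0.022 to 0.085 CPM. An exact two-sided permutation test of 2 libraries against 2 cannot go below p = 0.333. Overlaps and lengths come from GENCODE 44, promoter sequence from RefSeq (GRCh38.p14). Where a member's promoter had several entries the first was used. The 32 PSM pseudogenes summed to 68 to 199 counts per library and are not members.

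The members and lists were chosen with earlier results of these data known. Values per library are given for the catalytic and inducible subunits, POMP, PSME and PSMF1 genes, for the largest called rise and fall of each group that averaged 10 CPM or more and did not overlap between groups, and for at most 4 such genes per list. PSMA1, PSMA2, PSMA3, PSMA6, PSMA7, PSMB3, PSMD1, PSMD4, PSMD6, PSMD14, PSMG2, NGLY1, DDI2, BACH1, MAFG and UBQLN2 were added after their values were seen. The alternatives were other scalings (DESeq2's size factors, library totals, upper quartile), other filters, DESeq2 1.42.0, limma-voom of limma 3.58.1, the edgeR likelihood ratio test, the replicate number as a block, thinned counts, each library left out, and stricter thresholds. Values of 3 list genes are not reported here.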

Additional observations from a re-analysis of the deposited data

How the results depend on the processing

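The 12 falls and 9 rises kept within 1.5 times of these numbers under DESeq2's size factors, limma-voom, the likelihood ratio test, a minimum of 10 counts and thinning to the smallest library (8 falls and 9 rises). Library totals alone gave 5 falls, 18 rises and a median log2 fold change of 0.12, where the median of all genes was 0.13. Without a filter on low counts 15 members were lower and 1 higher, beside 4338 and 3074 of 33310 genes. The median was then −0.058 (all genes −0.056). DESeq2 called 8 falls and 5 rises (2846 and 2393 over all genes), with a median of −0.0191. An adjusted p under 0.01 left 10 falls and 3 rises, and a change of at least 0.5 left 4 falls and 0 rises. The shares of all genes at these stricter thresholds are not given here. The median was 0.00385 with upper-quartile factors and 0.00242 without the members that share exons with a read-through gene, an alternative chosen after seeing the data. Leaving out 1 library gave medians of −0.035 to 0.00057, against −0.026 to −0.0061 over all genes. Without shControl 1, and likewise without shControl 2, most of the rises lost their call. Fewer of all genes were then called higher as well. The arm left with 1 library was assumed to vary like the other. With the replicate number as a block, 14 members were lower and 9 higher, beside 4142 and 3870 of all genes, with a median of −0.01. The library numbers gave no pairing, since the difference between libraries 1 and 2 in shControl had a correlation of −0.02 with that in shYEATS2 over all genes. Over single genes and settings, 782 values kept their call, 80 lost and 20 gained one, and 0 called values changed sign. The cause of these differences was not tested. The median control level of the 11 core subunits was 218 by merged exons and 243 by canonical transcripts. Depth limits members below 10 CPM, where 1 count in shYEATS2 2 is 0.085 CPM.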
